A study of Saccharomyces cerevisiae with 12 samples.

Results

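The seripauperins (PAU genes) are a family of small, near-identical yeast genes, and their RNA was followed here in Saccharomyces cerevisiae S288C given tomatidine, tomatine or fenpropimorph. A probe set was taken as a member when any gene symbol assigned to it by the platform annotation was PAU followed by a number. This gave 22 probe sets of the 9275 tested, naming 24 PAU genes of 5923 named genes. Of the 22 probe sets, 10 name 1 PAU gene and 12 name several, with 2 to 8 genes each. Of the 24 genes, 10 have a probe set that names them alone and 14 are named only together with others. The names of 21 of the 22 probe sets end in _f_at, the array maker's mark for probes that match a gene family, so a signal can hold RNA of relatives that the annotation does not list.

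Seripauperins belong to the same wider group of serine-rich cell wall mannoproteins as the DAN and TIR proteins. The group is known for expression at low oxygen, for repression by heme and oxygen, and for activity during wine fermentation. Several of its genes are known targets of UPC2, a transcription factor that senses sterols, whose synthesis needs oxygen. Most PAU genes lie near the ends of chromosomes, in regions whose sequence is shared among many ends.

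The series holds 12 Affymetrix arrays, 1 for each culture, with 3 cultures in each of 4 groups and 1 culture of every group on each of 3 days. Tomatidine was given at 0.625 ppm, tomatine at 13.9 ppm and fenpropimorph at 0.313 ppm, and control cultures received the solvent dimethylformamide alone, each for 5 h. Tomatidine is the steroidal aglycone of tomatine, a glycoalkaloid of tomato, and fenpropimorph is a morpholine fungicide that inhibits the sterol enzymes ERG24 and ERG2. The groups share the strain S288C, which carries a Ty1 insertion in HAP1, the gene of a heme-responsive transcription factor. Array medians were 77.2 to 78.6, signals are given on the linear scale as normalised by the authors, and the number of arrays, 12, limits precision. Signals of different probe sets are not comparable as amounts of RNA, so each difference was taken within a probe set across arrays. Family means average the probe sets on each array and weight genes unequally, as PAU9 is named by 7 of them and PAU3 by 1. Values for days 1, 2 and 3 are given in that order. A group name with a number, such as control 2, stands for that group's array of that day. Errors after ± are standard errors of the limma fit to n = 3 cultures a group unless SD is written, and a called difference has a Benjamini-Hochberg adjusted p under 0.05 over all 9275 probe sets. Counts of probe sets or genes that rose or fell are counts of called differences. All comparisons with control use the same 3 control arrays.

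The PAU family stood highest in fenpropimorph cultures, slightly above control in tomatidine cultures and near control in tomatine cultures. The mean log2 signal over the 22 probe sets was 6.96, 7.03 and 7.00 in tomatidine cultures, 6.66, 6.72 and 6.70 in tomatine cultures and 8.19, 8.39 and 8.64 in fenpropimorph cultures, against 6.69, 6.76 and 6.71 in control cultures. The fenpropimorph arrays lay above all others and the tomatidine arrays above the tomatine and control arrays, while the tomatine and control arrays overlapped. A test for any difference among the 4 groups called 21 of the 22 PAU probe sets, where 37.2% of all probe sets were called (limma, moderated F test). The exception names PAU19, PAU21 and PAU22 (adjusted p = 0.293). In RNA of a whole culture, more cells with a transcript and more transcript per cell cannot be told apart.

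**Figure D1:**
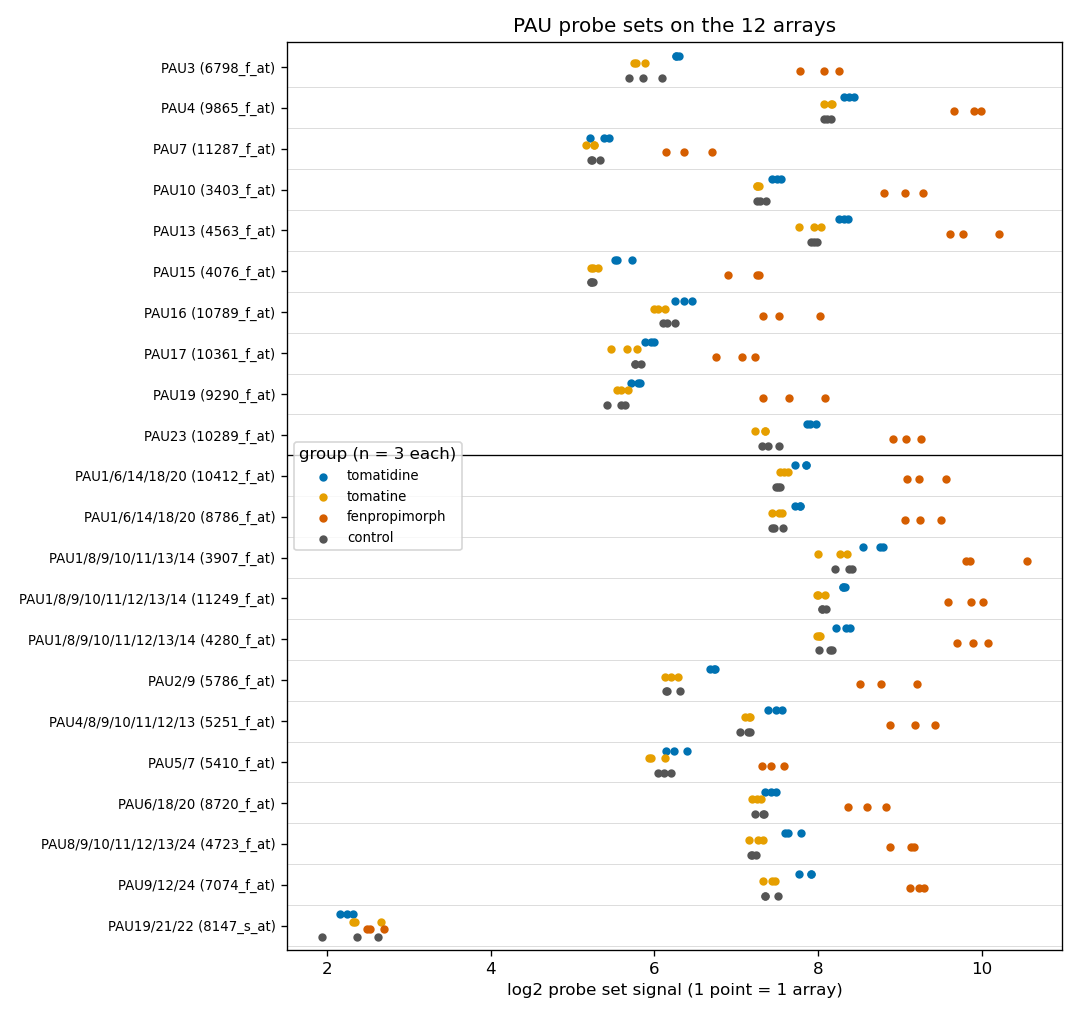
Log2 signal (horizontal axis) of the 22 PAU probe sets (rows, with the genes each names and its probe set), 1 point for each of 12 arrays, coloured by group, with the 10 probe sets that name 1 gene above the line and the 12 that name several below it. In every row but the last, the 3 fenpropimorph points lie to the right of all others.

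Nearly every PAU probe set stood at least 2-fold higher in fenpropimorph cultures. Of the 22, 21 rose and 0 fell, where 13.4% of all probe sets rose. All 21 rose at least 2-fold, where 3.00% of all probe sets did so, and in all 21 the fenpropimorph arrays lay above every control array, where 17.9% of all probe sets did so. The median log2 fold change over the 22 was 1.77, and over all tested probe sets it was -0.07. The 10 probe sets that name 1 gene all rose, with a median of 1.74.

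Among the single genes the log2 fold change with fenpropimorph ran from 1.13 to 2.15. PAU3, one of the PAU genes described as active in wine fermentation, had signals of 76.9, 76.9 and 78.7 in tomatidine cultures, 53.7, 58.9 and 54.6 in tomatine cultures and 220.0, 268 and 305 in fenpropimorph cultures, against 51.6, 68.4 and 58.2 in control cultures. PAU19 had signals of 56.8, 52.3 and 55.7 in tomatidine cultures, 48.1, 46.7 and 51.0 in tomatine cultures and 161, 199 and 271 in fenpropimorph cultures, against 43.0, 48.3 and 50.0 in control cultures. PAU7 had signals of 43.4, 37.1 and 41.6 in tomatidine cultures, 38.4, 35.9 and 38.4 in tomatine cultures and 70.6, 82.0 and 105 in fenpropimorph cultures, against 37.5, 40.3 and 37.8 in control cultures. For all 3 genes the fenpropimorph arrays were above all 9 others, by a wide margin for PAU3 and PAU19 and a narrower one for PAU7. With fenpropimorph PAU3 rose 4.44-fold (2.15 ± 0.12 on the log2 scale, adjusted p = 8.96e-08). PAU19 rose 4.37-fold (2.13 ± 0.145, adjusted p = 5.03e-07). PAU7 rose 2.20-fold (log2 fold change 1.13 ± 0.119, 95% interval 0.88 to 1.39, adjusted p = 1.9e-05), the least of the 10.

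PAU13 had signals of 306, 329 and 318 in tomatidine cultures, 218, 248 and 263 in tomatine cultures and 782, 869.7 and 1184 in fenpropimorph cultures, against 246, 242 and 253 in control cultures. PAU15 had signals of 46.5, 53.1 and 45.8 in tomatidine cultures, 37.9, 39.5 and 37.5 in tomatine cultures and 119.7, 155 and 152 in fenpropimorph cultures, against 38.2, 37.3 and 37.3 in control cultures. PAU10 had signals of 181, 188 and 173 in tomatidine cultures, 152, 153 and 156 in tomatine cultures and 446, 535 and 622 in fenpropimorph cultures, against 152, 157 and 164 in control cultures. In these 3 genes, too, the fenpropimorph arrays did not overlap with any other group. The log2 fold changes with fenpropimorph were 1.91 ± 0.127 for PAU13, 1.91 ± 0.0961 for PAU15 and 1.75 ± 0.0991 for PAU10, or between 3.35-fold and 3.77-fold higher. PAU4 had signals of 319, 334 and 347 in tomatidine cultures, 269, 288 and 286 in tomatine cultures and 812, 958 and 1015 in fenpropimorph cultures, against 285, 269 and 276 in control cultures, and rose by a log2 fold change of 1.74 ± 0.0811 with fenpropimorph.

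PAU16, which has no annotated gene between it and the chromosome end, had signals of 82.3, 76.1 and 88.1 in tomatidine cultures, 65.7, 69.8 and 63.5 in tomatine cultures and 161, 184 and 261 in fenpropimorph cultures, against 68.6, 76.3 and 71.5 in control cultures. PAU17 had signals of 59.2, 62.4 and 63.7 in tomatidine cultures, 50.7, 44.4 and 55.4 in tomatine cultures and 108, 135 and 149.8 in fenpropimorph cultures, against 57.3, 54.4 and 54.3 in control cultures. PAU23 had signals of 234, 251 and 239 in tomatidine cultures, 163, 150.0 and 164 in tomatine cultures and 483, 539 and 610.1 in fenpropimorph cultures, against 168, 184 and 159 in control cultures. Again the fenpropimorph arrays were above every other array. With fenpropimorph PAU16, PAU17 and PAU23 had log2 fold changes of 1.46 ± 0.141, 1.23 ± 0.113 and 1.67 ± 0.0888.

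Of the 12 probe sets that name several PAU genes, 11 rose with fenpropimorph. The one that names PAU2 and PAU9 had signals of 102, 107 and 106 in tomatidine cultures, 73.7, 78.1 and 70.0 in tomatine cultures and 364, 438 and 592 in fenpropimorph cultures, against 70.8, 79.3 and 71.2 in control cultures. Its fenpropimorph arrays lay furthest above control in the family, and it rose 6.18-fold (log2 fold change 2.63 ± 0.137, 95% interval 2.33 to 2.93, adjusted p = 5.85e-08). The probe set of PAU4, PAU8, PAU9, PAU10, PAU11, PAU12 and PAU13 had signals of 179, 188 and 168 in tomatidine cultures, 138, 144 and 143 in tomatine cultures and 471, 581 and 686 in fenpropimorph cultures, against 142, 133 and 144 in control cultures, and rose 4.11-fold with fenpropimorph (log2 fold change 2.04 ± 0.111).

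The smallest called changes among the shared probe sets were those of PAU5 with PAU7 and of PAU6 with PAU18 and PAU20. PAU5 is a cell wall protein reported to protect yeast against a killer toxin. Signals of the PAU5 and PAU7 probe set were 70.7, 84.2 and 75.5 in tomatidine cultures, 62.4, 69.9 and 61.0 in tomatine cultures and 159, 172 and 192 in fenpropimorph cultures, against 65.7, 73.9 and 69.5 in control cultures, and it rose 2.50-fold with fenpropimorph (log2 fold change 1.32 ± 0.0924, adjusted p = 6.29e-07). The probe set of PAU6, PAU18 and PAU20 had signals of 171, 164 and 179 in tomatidine cultures, 146, 153 and 158 in tomatine cultures and 329.8, 388 and 455 in fenpropimorph cultures, against 149.9, 162 and 161 in control cultures, and rose 2.46-fold (1.30 ± 0.0999, adjusted p = 1.43e-06). Both were above every control array in fenpropimorph cultures.

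The probe set of PAU19, PAU21 and PAU22 was the only one of the 22 without a called change in fenpropimorph cultures. Its signals were 4.46, 4.97 and 4.75 in tomatidine cultures, 5.07, 6.33 and 4.98 in tomatine cultures and 6.51, 5.76 and 5.61 in fenpropimorph cultures, against 5.14, 6.18 and 3.85 in control cultures, far below the array medians on all 12 arrays. Each compound's arrays overlapped with control, while the tomatidine arrays lay below the tomatine and the fenpropimorph arrays. The log2 fold change with fenpropimorph was 0.26 (95% interval -0.07 to 0.59, adjusted p = 0.219), and without the control culture of day 2 it was 0.42 (adjusted p = 0.0447). This probe set is the only 1 of the 22 whose name ends in _s_at and not in _f_at. PAU19 is also named alone by a probe set ending in _f_at, which rose 4.37-fold as given above and can hold RNA of relatives. The part of the probe type in this difference was not tested. PAU21 and PAU22 are named by no other probe set.

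Pairs of probe sets that name identical genes gave nearly equal changes. Of the 2 that name PAU1, PAU6, PAU14, PAU18 and PAU20, one had signals of 210.1, 230.1 and 231 in tomatidine cultures, 198, 191 and 185 in tomatine cultures and 544, 601 and 757 in fenpropimorph cultures, against 185, 182 and 179.8 in control cultures. Its log2 fold change with fenpropimorph was 1.79 ± 0.101, and that of the other was 1.78 ± 0.0955. Of the 2 that name PAU1, PAU8, PAU9, PAU10, PAU11, PAU12, PAU13 and PAU14, one had signals of 298, 334 and 324 in tomatidine cultures, 253, 259 and 258 in tomatine cultures and 833, 953 and 1079 in fenpropimorph cultures, against 259, 283 and 287 in control cultures. Its log2 fold change with fenpropimorph was 1.78 ± 0.0897, and that of the other was 1.76 ± 0.0916. A probe set of the same genes without PAU12 had signals of 375, 444 and 432 in tomatidine cultures, 308, 326 and 255 in tomatine cultures and 925, 894 and 1498 in fenpropimorph cultures, against 334, 295 and 342 in control cultures, and rose by a log2 fold change of 1.73 ± 0.172.

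The cultures given fenpropimorph differed among themselves more in PAU signal than those of the other groups did. The median SD of the log2 signal over the 22 probe sets was 0.0716 in tomatidine cultures, 0.0669 in tomatine cultures and 0.235 in fenpropimorph cultures, against 0.0647 in control cultures (n = 3 each). Of the fenpropimorph arrays, that of day 3 was the highest for 20 of the 22 probe sets (90.9%) and that of day 1 the lowest for 20. Of the 1218 other probe sets called higher with fenpropimorph, day 3 was the highest for 44.7% and day 1 the lowest for 53.3%. The median log2 difference between day 3 and day 1 was 0.47 for the PAU probe sets and 0.07 for those others. For the PAU19 probe set the day 3 signal was 1.68 times that of day 1, and for the probe set of PAU9, PAU12 and PAU24 it was 1.13 times. With 1 culture a day these differences have no replicate, and PAU probe sets share transcripts, so their days do not vary independently.

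Of the 565 other probe sets ending in _f_at, 36 rose with fenpropimorph (6.37%, where 13.4% of all probe sets rose) and 97 fell (where 16.9% of all fell), with a median log2 fold change of -0.12. Log2 ratios of 3' to 5' control probe sets for ACT1, a measure of RNA integrity, were 0.37 ± 0.093 in fenpropimorph cultures and 0.35 ± 0.0244 in control cultures (SD, n = 3 each). Those of SPT15 were 2.34 ± 0.077 in fenpropimorph cultures and 2.33 ± 0.174 in control cultures, and those of SRB4 were 1.18 ± 0.103 in fenpropimorph cultures and 1.13 ± 0.0557 in control cultures (SD, n = 3 each).

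With tomatidine the family's differences from control were small, mostly positive and mostly not called. Of the 22 probe sets 3 rose and 0 fell, where 2.53% of all probe sets rose. The log2 fold change was positive for 21 of the 22 and for 4060 of all 9275 probe sets. Its median was 0.27 over the 22 and -0.02 over all probe sets. In 18 of the 22 the tomatidine arrays lay above every control array, where 10.7% of all probe sets did so. An unadjusted p under 0.05 was found for 13 of the 22, and for 1559 of all 9275 probe sets (limma).

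The 3 probe sets that rose with tomatidine were those of PAU23, of PAU9 with PAU12 and PAU24, and of PAU8 with PAU9, PAU10, PAU11, PAU12, PAU13 and PAU24. For PAU23, whose signals are given above, the tomatidine arrays were the next highest after fenpropimorph and did not overlap with tomatine or control. The probe set of PAU9, PAU12 and PAU24 had signals of 241, 242 and 218 in tomatidine cultures, 160.4, 174 and 178 in tomatine cultures and 557, 599 and 629 in fenpropimorph cultures, against 164, 182 and 164 in control cultures. For the 7 genes the shared signals were 193, 221 and 199 in tomatidine cultures, 142, 161 and 153 in tomatine cultures and 469.9, 562 and 577 in fenpropimorph cultures, against 145, 151 and 147 in control cultures. In both, the tomatidine arrays lay between the control and the fenpropimorph arrays without overlap.

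With tomatidine PAU23 rose 1.42-fold (log2 fold change 0.50 ± 0.0888, 95% interval 0.31 to 0.70, adjusted p = 0.00691). The probe set of PAU9, PAU12 and PAU24 had a log2 fold change of 0.46 ± 0.076 (adjusted p = 0.00456). That of the 7 genes had 0.47 ± 0.0878 (adjusted p = 0.00977), and without the tomatidine culture of day 2 its adjusted p was 0.0518. The largest fold change was not among the called ones: PAU2 with PAU9 stood 0.52 above control on the log2 scale (95% interval 0.22 to 0.82, adjusted p = 0.0591). It was called without the fenpropimorph array of day 1 (adjusted p = 0.0174) or day 3 (adjusted p = 0.00525), through the shared estimate of spread. It was also called with only the 2 compared groups in the fit (adjusted p = 0.0107) and with quantile normalization (adjusted p = 0.041). The same held among probe sets with a mean log2 signal of at least 6 (adjusted p = 0.0286).

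Other single genes had log2 fold changes with tomatidine of 0.39 for PAU3 (adjusted p = 0.103), 0.36 for PAU15 (adjusted p = 0.059) and 0.27 for PAU4 (adjusted p = 0.103), none of them called. PAU7 had 0.08 (adjusted p = 0.796), and PAU7, PAU16, PAU5 with PAU7, and PAU19 with PAU21 and PAU22 were the 4 probe sets whose tomatidine arrays overlapped with control. The number called with tomatidine was 7 without the fenpropimorph array of day 1, 7 without that of day 3, and 2 without the tomatidine array of day 2. The 3' to 5' log2 ratio of SPT15 was 1.82 ± 0.285 in tomatidine cultures and 2.33 ± 0.174 in control cultures (SD, n = 3 each). The ratios of the other control genes lay the other way, at 0.46 ± 0.128 in tomatidine cultures and 0.35 ± 0.0244 in control cultures for ACT1, and at 1.23 ± 0.105 in tomatidine cultures and 1.13 ± 0.0557 in control cultures for SRB4 (SD, n = 3 each). Their part in the small tomatidine differences was not tested.

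With tomatine no PAU probe set was called. This was 0 of 22 by limma, where 4.36% of all probe sets were called in either direction. An unadjusted p under 0.05 was found for 0 of the 22, and for 1701 of all 9275 probe sets. The log2 fold change was positive for 10 and negative for 12, with a median of -0.03 and a range of -0.15 to 0.13, and over all probe sets the median was -0.01. Only the first of the 2 probe sets of PAU1, PAU6, PAU14, PAU18 and PAU20 had groups that did not overlap, with a log2 fold change of 0.07 (adjusted p = 0.773), where 24.6% of all probe sets did not overlap. The lowest value was that of PAU17, at -0.15 (95% interval -0.40 to 0.10, adjusted p = 0.55). The 95% intervals of the 22 ran from -0.51 at the lowest bound to 0.46 at the highest. They rest on a spread pooled over all 4 groups, fenpropimorph included. The absence of calls does not show that the groups were alike.

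**Figure D2:**
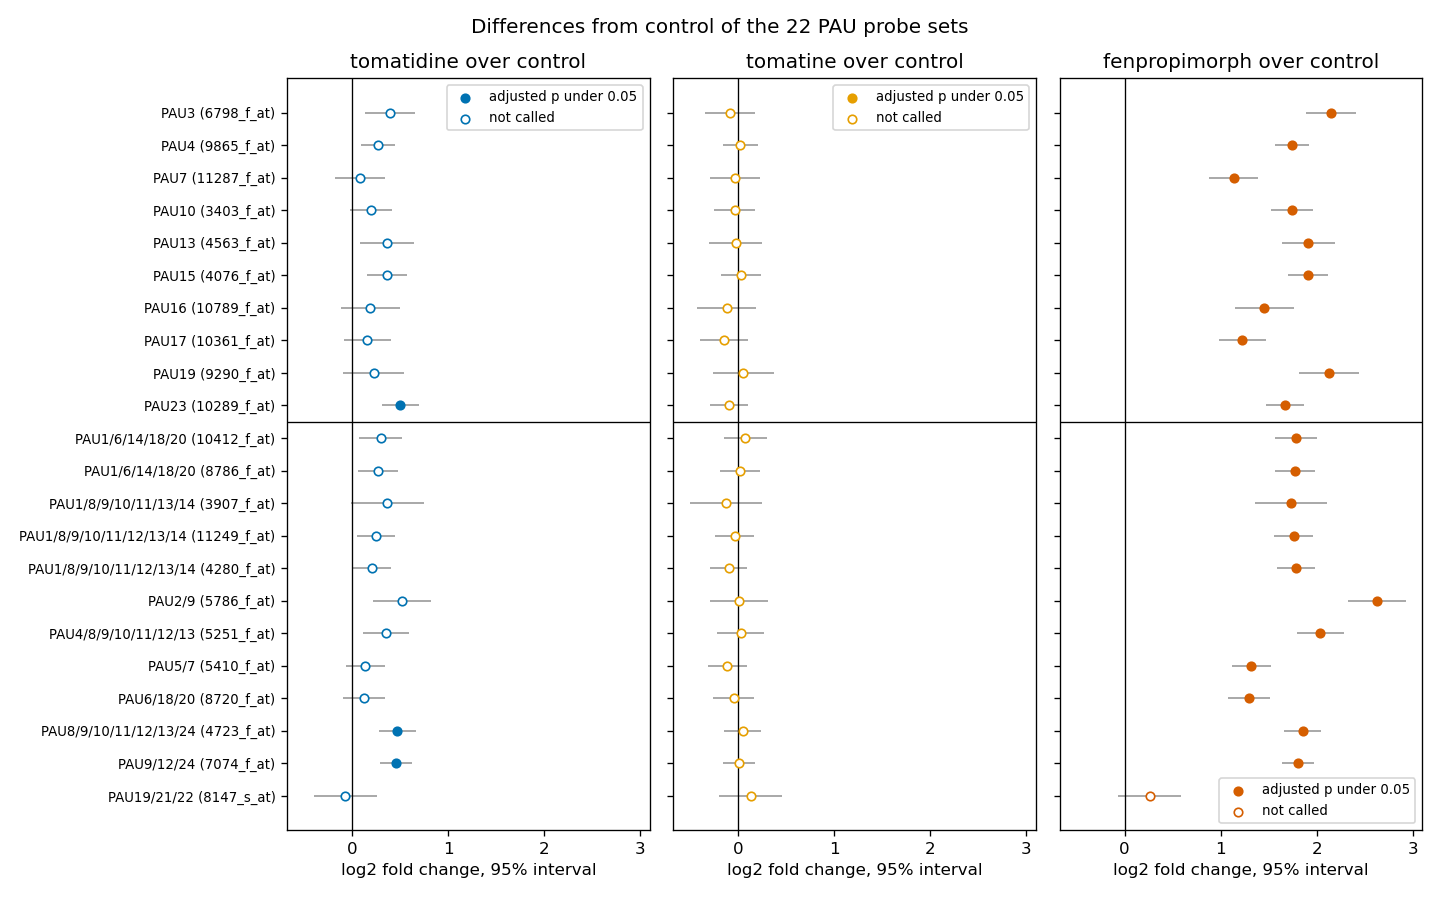
Log2 fold change against control (horizontal axis) of the 22 PAU probe sets (rows) for tomatidine, tomatine and fenpropimorph, with 95% intervals as bars, filled points for called changes and n = 3 cultures a group. Fenpropimorph values run from 0.26 to 2.63, tomatidine values from -0.07 to 0.52 and tomatine values from -0.15 to 0.13.

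The compounds were also compared with each other as given, in 3 pairs, although their doses differed, so the comparison is one of treated cultures and not of molecules at a matched dose. Tomatidine cultures were called higher than tomatine cultures in 4 of the 22 PAU probe sets and called lower in 0, where 2.89% of all probe sets were called higher. The 4 were PAU3 (log2 difference 0.48 ± 0.12, adjusted p = 0.0413), PAU23 (0.60 ± 0.0888, adjusted p = 0.00207) and the probe sets of PAU9, PAU12 and PAU24 (0.45 ± 0.076, adjusted p = 0.00451) and of the 7 genes (0.42 ± 0.0878, adjusted p = 0.0167). The PAU3 call was lost with quantile normalization (adjusted p = 0.0562), without any 1 tomatidine or tomatine array, and without fenpropimorph 2 or control 3. That of the 7 genes was lost without the tomatidine array of day 2 (adjusted p = 0.0678) or the tomatine array of day 1 (adjusted p = 0.0682). The median log2 difference over the 22 was 0.31. The log2 difference was positive for 21 of the 22 and for 4124 of all 9275 probe sets. The tomatidine arrays lay above every tomatine array for 20 of the 22 (948 of all 9275) and below for 1 (1398 of all 9275). An unadjusted p under 0.05 was found for 17 of the 22 and for 1793 of all 9275 (limma). The number called was 2 without the tomatidine array of day 2 or the tomatine array of day 1, 9 without the fenpropimorph array of day 3 and 10 without that of day 1.

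Tomatidine cultures were called lower than fenpropimorph cultures in 21 of the 22 PAU probe sets, where 13.5% of all probe sets were called lower. The median log2 difference was -1.48, and the values ran from -2.11 ± 0.137 for PAU2 with PAU9 (adjusted p = 5.32e-07) to -0.33 for PAU19 with PAU21 and PAU22, which was not called (adjusted p = 0.122). PAU23 differed by -1.17 ± 0.0888 on the log2 scale. Tomatine cultures were called lower than fenpropimorph cultures in the same number, 21 of 22, where 15.9% of all probe sets were called lower. The median log2 difference was -1.79.

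Position along the chromosome was taken from the gene order of the S288C reference annotation. Of the 24 PAU genes, 17 were among the outermost 5 annotated genes of a chromosome end and 19 among the outermost 10, and PAU8, PAU16 and PAU19 were the last genes of theirs. PAU2, PAU5, PAU17 and PAU23 lay more than 20 genes inside. With fenpropimorph, the log2 fold changes of probe sets naming these inner genes were 2.63 for PAU2 with PAU9, 1.32 for PAU5 with PAU7, 1.23 for PAU17 and 1.67 for PAU23. All but that of PAU2 with PAU9 were below the family median of 1.77. That probe set is shared with PAU9, which has 3 annotated genes between it and its chromosome end. A relation of the change to position was not tested.

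The nearest measured gene on each side that is no PAU gene gave 37 neighbours, at a median of 1 gene away. With fenpropimorph 6 of the 37 rose and 4 fell, where 13.4% of all probe sets rose and 16.9% fell, and their median log2 fold change was 0.00. With tomatidine 0 rose and 1 fell, where 2.53% of all probe sets rose and 1.91% fell. With tomatine 2 of the 37 fell, where 164 of all 9275 probe sets fell. HSP104, a disaggregating chaperone 2 genes from PAU17, rose with fenpropimorph (log2 fold change 1.10 ± 0.113), and so did YPS6, a cell surface protease next to PAU15 (0.56 ± 0.0599). COX12, a subunit of cytochrome c oxidase next to PAU23, fell with both compounds, with log2 fold changes of -0.57 ± 0.0856 with tomatidine and -0.65 ± 0.0856 with fenpropimorph.

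**Figure D3:**
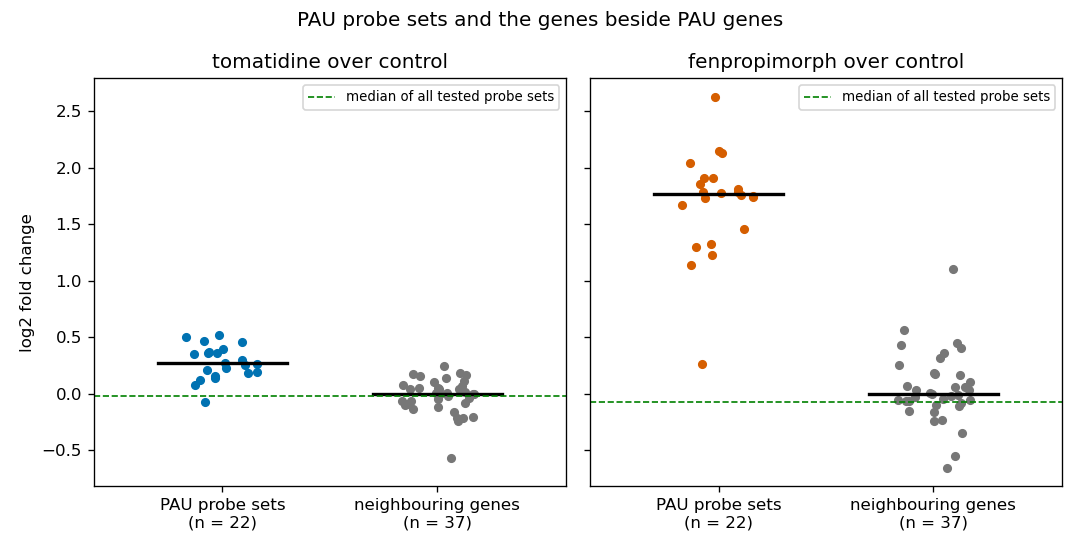
Log2 fold change over control (vertical axis) with tomatidine (left) and fenpropimorph (right) of the 22 PAU probe sets (coloured points) and the 37 neighbouring genes (grey points), with black lines at their medians and a dashed line at the median of all tested probe sets. With fenpropimorph the PAU points centre on 1.77 and the neighbours on 0.00, with a range of -0.65 to 1.10 among the neighbours.

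The relatives of the PAU genes in the anaerobic cell wall, DAN1, DAN4 and TIR1 to TIR4, were chosen with earlier results of these data known. With tomatidine 5 of the 6 rose, where 2.53% of all probe sets rose, and their median log2 fold change was 2.16. With fenpropimorph all 6 rose, where 13.4% of all probe sets rose, and the median was 3.58. DAN1, a mannoprotein of anaerobic growth, had signals of 1811, 1797 and 1189 in tomatidine cultures, 64.7, 55.2 and 60.4 in tomatine cultures and 3659, 3535 and 3382 in fenpropimorph cultures, against 31.6, 98.0 and 32.2 in control cultures. The tomatidine and fenpropimorph arrays were far above the others, and control 2 stood above the other 2 control arrays. TIR1, a mannoprotein induced by cold shock and low oxygen, had signals of 13804, 13890.0 and 13734 in tomatidine cultures, 7511, 6955 and 6912 in tomatine cultures and 14644, 15161 and 14757 in fenpropimorph cultures, against 5240.0, 7491 and 4568 in control cultures.

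With tomatidine the log2 fold change of TIR1 was 1.29 ± 0.136 and with fenpropimorph it was 1.40, and the difference of -0.11 between the compounds was not called (adjusted p = 0.63). The tomatidine arrays of TIR1 lay below its fenpropimorph arrays without overlap, where 1738 of all 9275 probe sets did so. Its signals were not far below the highest value of the series, 21252, and whether this limited the difference was not tested. The other 5 relatives were called lower in tomatidine than in fenpropimorph cultures, where 13.5% of all probe sets were called lower. Their log2 differences ran from -2.09 for TIR4 to -0.54 for TIR2. That of DAN1 was -1.17 (adjusted p = 0.0227), and its call was lost without tomatidine 3 (adjusted p = 0.0854) or any 1 of the fenpropimorph arrays (adjusted p = 0.0526 to 0.0605). With tomatine 0 of the 6 were called by limma and 1 had an unadjusted p under 0.05, and without control 2 DAN1 and TIR1 were called (log2 fold changes 0.91 and 0.54, adjusted p = 0.0293 and 0.0157).

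CWP1, a cell wall mannoprotein of aerobic growth, moved the other way. Its signals were 1178, 1319.8 and 1274 in tomatidine cultures, 1573, 1597 and 1696 in tomatine cultures and 831, 1061 and 1010.0 in fenpropimorph cultures, against 1668, 1840.1 and 1867 in control cultures. It fell with tomatidine (log2 fold change -0.51 ± 0.0922, adjusted p = 0.00786) and with fenpropimorph (-0.89 ± 0.0922, adjusted p = 1.67e-05). CWP2, another aerobic mannoprotein, had a log2 fold change of -0.18 with tomatidine (adjusted p = 0.288) and -0.26 with fenpropimorph (adjusted p = 0.0334), and the second call was lost with only the 2 compared groups in the fit (adjusted p = 0.0722), without any 1 of the 3 control arrays, and without the fenpropimorph array of day 1 (adjusted p = 0.114).

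Among 8 regulators of anaerobic and sterol-responsive genes, 2 rose and 0 fell with tomatidine, where 2.53% of all probe sets rose and 1.91% fell. With tomatine 1 of the 8 was called, where 4.36% of all probe sets were called in either direction. With fenpropimorph 2 rose and 5 fell, where 13.4% of all probe sets rose and 16.9% fell. UPC2, the sterol-sensing activator, had signals of 65.3, 71.3 and 68.8 in tomatidine cultures, 41.0, 44.7 and 63.6 in tomatine cultures and 181, 171 and 198 in fenpropimorph cultures, against 42.5, 42.2 and 34.6 in control cultures. The fenpropimorph arrays were highest and the tomatidine arrays next, and 1 tomatine array, at 63.6, came close to the tomatidine arrays. The log2 fold change was 0.79 ± 0.142 with tomatidine and 2.21 ± 0.142 with fenpropimorph.

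ROX1, a heme-induced repressor of anaerobic genes, had signals of 36.0, 35.7 and 37.5 in tomatidine cultures, 43.0, 41.9 and 40.6 in tomatine cultures and 29.4, 26.1 and 24.4 in fenpropimorph cultures, against 50.8, 38.9 and 56.0 in control cultures. It fell with fenpropimorph (log2 fold change -0.85 ± 0.116, adjusted p = 0.000161), and with tomatidine its value of -0.40 was not called (adjusted p = 0.0853) except without control 2 (-0.55, adjusted p = 0.00562). MOT3, a repressor that acts beside ROX1, had signals of 10.7, 10.4 and 11.0 in tomatidine cultures, 11.6, 9.92 and 13.0 in tomatine cultures and 10.7, 10.1 and 9.57 in fenpropimorph cultures, against 13.4, 12.6 and 11.6 in control cultures, far below the array medians, and its fall with fenpropimorph (-0.31 ± 0.0953, adjusted p = 0.0291) was lost with quantile normalization (adjusted p = 0.0748), with 16 added before the log (adjusted p = 0.0641) and without any 1 of 4 arrays. TUP1 and CYC8, the subunits of the corepressor, had log2 fold changes of -0.39 (adjusted p = 0.00134) and -0.24 (adjusted p = 0.0343) with fenpropimorph, and the CYC8 call was lost with only the 2 compared groups in the fit (adjusted p = 0.0573) and without any 1 of 4 arrays. ECM22, a homologue of UPC2, had -0.39 (adjusted p = 0.00982).

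HAP1 had log2 fold changes of 0.66 ± 0.082 with tomatidine and 1.16 ± 0.082 with fenpropimorph on the probe set that stands for it. That probe set was taken for its highest mean log2 signal among those naming HAP1 alone. The 2 other probe sets that name HAP1, both ending in _f_at, were not called with either compound. They had -0.06 and -0.18 with tomatidine (adjusted p = 0.871 and 0.363, limma), and both had 0.00 with fenpropimorph. SUT1, a regulator of sterol uptake, rose with tomatine (0.39 ± 0.0887, adjusted p = 0.0338), and this call was lost with only the 2 compared groups in the fit (adjusted p = 0.0865) and without any 1 of the tomatine or control arrays.

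**Figure D4:**
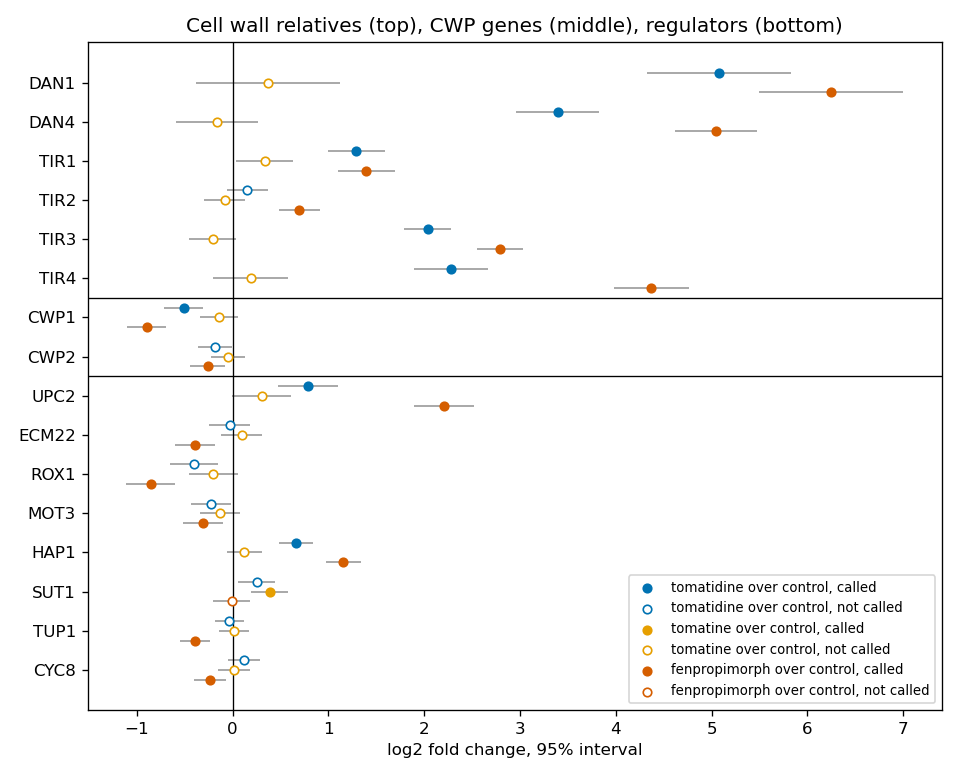
Log2 fold change over control (horizontal axis, bars are 95% intervals, n = 3 cultures a group) of the 6 relatives, CWP1 and CWP2, and the 8 regulators (rows) for each compound, with filled points for called changes. DAN1 and DAN4 lie furthest to the right with tomatidine and fenpropimorph, and CWP1 and ROX1 furthest to the left with fenpropimorph.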

How the data were processed

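RNA of 12 cultures was measured on Affymetrix arrays, and groups, doses and days were taken from the sample titles. A different label field, which gives tomatidine for each sample, was set aside. The authors deposited 1 intensity for each probe set and array, computed with RMA per the submitters' processing notes, and were on a linear scale (1.84 to 21252), so log2 was taken. No column was left unused (0). Leaving out the 60 control probe sets gave 9275 for testing.

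The 4 groups were fitted in limma 3.58.1 (R 4.3.3) to all 12 arrays, with tests two-sided and Benjamini-Hochberg adjusted over 9275 probe sets. The F test used the moderated F statistic. With 1 culture a day in each group, p-values reflect the spread among the 3 cultures of a group, pooled over all 4 groups for each probe set. For PAU probe sets, tests of tomatidine and tomatine therefore also carry the larger spread of the fenpropimorph cultures. Tests of fenpropimorph in turn carry the smaller spread of the other groups, so their errors and intervals may be too narrow. For PAU19 the SD of the log2 signal was 0.377 in fenpropimorph and 0.113 in control cultures. With only the 2 compared groups in the fit, 21 PAU probe sets were still called with fenpropimorph. The method was tested on simulated data. Figures used matplotlib 3.10.9 (Python 3.11.15).

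Membership in the family followed gene names alone, while the family and the gene lists were chosen with earlier results of these data known. Array values were given for each probe set naming 1 PAU gene and for those naming several with the 3 highest or 3 lowest fold changes of a compound. Listed genes were named where called, with UPC2, ROX1 and MOT3. The neighbours are the nearest measured genes that are not PAU genes, in the order of assembly R64, whose table matched 24 of 24 PAU genes. A planned ranking of genes by their correlation with the family is not reported, since the fenpropimorph arrays stand apart from the rest and a pooled correlation would describe that gap. Promoter motifs were not analysed here.

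The day of culture is shared between groups per the labels and pairs the samples. Deviations from the group means correlated at a mean of 0.0351 between same-day arrays (18 pairs, -0.203 to 0.236). Alternatives were the day as a block, quantile normalization, median centring, 16 added before the log, only probe sets with a mean log2 signal of at least 6, only the compared groups, only members naming 1 gene, and leaving out each array. The count of neighbours called was recomputed under the same alternatives, a step chosen after the data were seen. A value that was not called and changed sign was not counted as reversed.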

Additional observations from a re-analysis of the deposited data

How the results depend on the processing

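The fenpropimorph and tomatine results for the PAU family held under each alternative that kept all 22 probe sets. With fenpropimorph, 21 to 22 probe sets were called when 1 array was left out, with a median log2 fold change of 1.66 to 1.87. With tomatine 0 were called, with a median of -0.04 to -0.01.

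The small tomatidine differences depended more on the settings. The number called was 2 to 7 when 1 array was left out, 5 with only the 2 compared groups, 5 of the 19 members among bright probe sets and 1 with members naming 1 gene. The median stayed at 0.26 to 0.29 without 1 array. Against tomatine, the number called was 2 to 10 without 1 array, 7 of the 19 members among bright probe sets and 2 with members naming 1 gene. The median was 0.28 to 0.32 without 1 array and 0.25 with 16 added before the log. With members naming 1 gene, all 10 were called for fenpropimorph over control, tomatidine over fenpropimorph, tomatine over fenpropimorph and the F test. These counts are lower than those of the whole family because only 10 members were left.

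With the day of culture as a replicate block, 21 PAU probe sets were called with fenpropimorph, 3 with tomatidine and 0 with tomatine, and 5 between tomatidine and tomatine. The pairing by day changed no other call count of the family. No called value reversed under any alternative run. Neighbours called with fenpropimorph numbered 9 to 12 under the alternatives that kept all 37, and 8 of the 20 left among bright probe sets. With tomatidine 1 to 2 neighbours were called. The 12 arrays, cross-matching probes and unequal doses limit these comparisons.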
